A study of Mus musculus with 54 samples.

Results

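Mitochondria translate the few proteins that their own genome encodes on a ribosome of their own, whose protein subunits are all encoded in the nucleus. The genes of these subunits are described here across the conditions of a study of mouse hematopoietic stem cells (HSC) after radiation. Members were taken by name, as every gene of the deposited table called Mrpl or Mrps with a number and at most a letter suffix, which gave 77 of 24421 genes. The naming rule itself uses no measured value, but the family was picked with earlier results of these data known. All 77 were among the 14320 genes with enough counts to be tested. By their known place in the ribosome 50 belong to the large subunit and 26 to the small one. Mrps36 carries the family's name but belongs to the 2-oxoglutarate dehydrogenase complex, an enzyme of the citric acid cycle.

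HSC were sorted from bone marrow of Fgd5 reporter mice on a C57BL/6 background, in which ZsGreen fluorescence marks HSC, by surface markers of the SLAM-LSK(wide) gate and by the reporter. Mice were injected subcutaneously with dmPGE2, a stabilised form of prostaglandin E2, or with ethanol in saline as vehicle, and 30 min later received 8.53 Gy, a dose lethal to 50% of animals; unirradiated mice had the same injections. Libraries for RNA-seq came from unirradiated vehicle mice (15 libraries), 7 unirradiated mice with dmPGE2 taken at 1 h, 8 irradiated mice with vehicle and 8 with dmPGE2 taken at 1 h, and 8 with vehicle and 8 with dmPGE2 taken at 24 h. The labels place unirradiated vehicle mice at both times, but the names of their columns state no time, so these 15 were pooled as 1 baseline. The labels give the dose of dmPGE2 as 35 µg beside a volume and concentration that would hold less, so the dose is uncertain.

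The mitochondrial ribosome makes only subunits of the respiratory chain and of ATP synthase, and it needs both its nuclear-encoded proteins and RNA made inside the organelle. Many of its proteins have a counterpart in bacteria and others arose with the organelle: 46 members are of the first kind and 30 of the second. HSC at rest are known to rely little on respiration and to raise mitochondrial activity when they leave quiescence. The messenger RNAs encoded by mitochondrial DNA were not analysed here.

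The unirradiated vehicle libraries need a word before the results. Their column names carry numbers in 2 sets, S42 to S70 (8 libraries) and S79 to S85 (7 libraries), and each of the 7 number tags that name the libraries of the second set also occurs in the first. Each of the 7 later libraries correlated best with the earlier library of its own tag (r across genes 0.959 to 0.984, against 0.937 to 0.974 for different tags), and sex-linked genes gave the same sex in 7 of 7 tags. These genes gave 10 male and 5 female libraries where the labels state 8 and 7. The 2 sets may therefore hold the same mice, in which case the baseline counts 8 animals and not 15. Members were slightly higher in the later set: in the 7 pairs of one tag their mean was higher by 0.06 to 0.17 on the log2 scale (median 0.15). With the tag as a block, 20 members were higher and 0 lower, where 8.07% of all genes were higher and 9.26% lower; without it 2 members were higher and 0 lower (1.88% and 2.51% of all genes). All libraries of 1 h are numbered with the first set and all of 24 h with the second. Counts of members called against the baseline are therefore also given against each set alone. Other gene lists and markers were compared with the pooled baseline only.

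Total counts ran from 15049364 to 26217041 per library, and members took 0.394% to 0.672% of them. The lowest count of any member in any library was 135. All 12 HSC markers were detected in every group. Of 9 erythroid genes 3 or 4 were at 0 in every library of a group, but the list still summed to 39.3 to 267 CPM (the counts scaled to library size). Neutrophil genes summed to 86.9 to 1770 CPM and 6 monocyte genes to 468 to 949 CPM. Some RNA of each of these lists was thus present in all groups.

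Levels per length were read as CPM per kilobase of exon (RPKM). The highest means of the group means, with each group counted alike, were Mrpl42 with 194 RPKM, Mrpl33 with 187, Mrps18c and Mrpl28 with 125 each, and Mrpl13 with 122. In unirradiated vehicle mice Mrpl42 was at 185 ± 25.9 RPKM (SD, n = 15) and Mrpl33 at 151 ± 24.4, while Mrps18c at 109 ± 14.6, Mrpl28 at 123 ± 13.8 and Mrpl13 at 112 ± 13.1 lay within each other's spread. The lowest were Mrps25 with 9.08 RPKM, Mrpl1 with 9.79, Mrpl19 with 12.3, Mrpl11 with 16.4 and Mrps31 with 17.1. All 5 have exon sums above the members' median of 1053 bases, from 1536 in Mrps31 to 6065 in Mrps25. Of the exon bases of Mrps25, 58.3% also lie in Nr2c2 on the other strand, and 22.9% of those of Mrpl19 lie in Gcfc2. In all, 10 members share exon bases with another gene, among them Mrpl41 (41.4%, Dph7), Mrpl24 (37.4%, Rrnad1) and Mrps6 (18.6%, Slc5a3 on the same strand). The kit marks no strand, so the values of these members are uncertain.

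The mean log2 CPM over the 77 members summarises each library. It was 5.80 ± 0.12 (SD, n = 15) in unirradiated vehicle mice, 5.75 ± 0.12 with dmPGE2 alone (n = 7), 5.67 ± 0.10 at 1 h after radiation with vehicle and 5.80 ± 0.10 with dmPGE2 (n = 8 each). At 24 h it was 6.28 ± 0.06 with vehicle and 6.03 ± 0.19 with dmPGE2 (n = 8 each). The 8 vehicle libraries of 24 h, at 6.21 to 6.37, all lay above the 15 baseline libraries, at 5.60 to 6.00. The dmPGE2 libraries of 24 h ran from 5.78 to 6.24 and overlapped both.

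**Figure D1:**
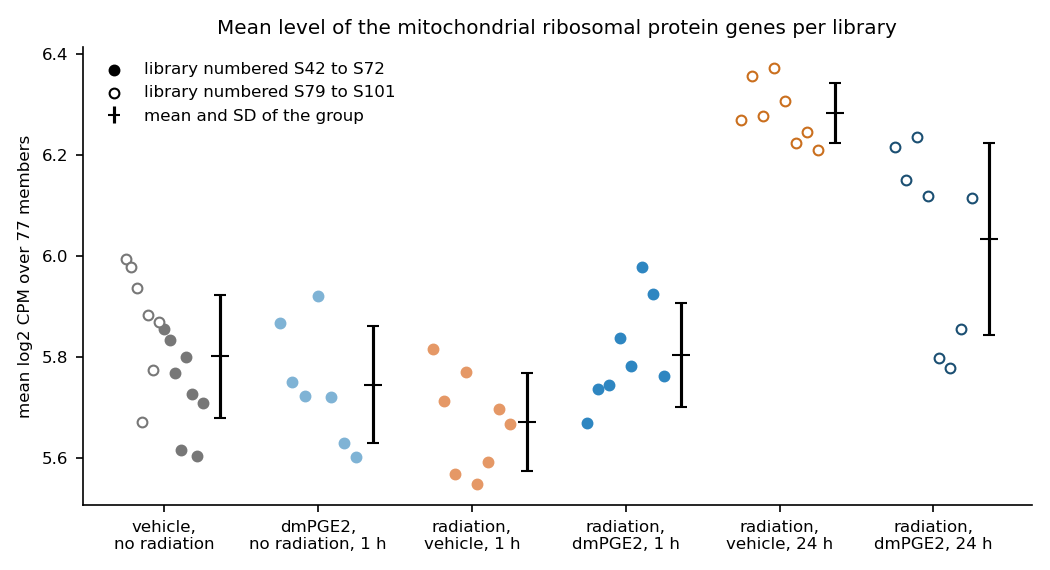
Mean log2 CPM over the 77 members in each library (y axis) by group (x axis); filled points are libraries numbered S42 to S72, open points those numbered S79 to S101, and the bars give mean and SD. All 8 libraries of 24 h after radiation with vehicle lie above all 15 of unirradiated vehicle mice, and 3 of the 8 dmPGE2 libraries of 24 h lie among the latter.

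The first question is what radiation changed by 24 h in mice given vehicle. Nearly the whole family was higher: 73 of 77 members rose and 0 fell (edgeR, adjusted p below 0.05), where 23.3% of all genes tested rose and 26.5% fell. The median log2 fold change was 0.50 over the members and -0.06 over all genes. Both subunits took part, with 46 of 50 large-subunit genes (median 0.51) and 26 of 26 small-subunit genes (median 0.49) higher. Genes with a bacterial counterpart (45 of 46 higher, median 0.52) and mitochondria-specific genes (27 of 30, median 0.48) had close medians. Mrps36, which is no ribosomal subunit, was also higher (log2 fold change 0.28, adjusted p = 0.0405). For 32 members every irradiated library lay above every baseline library, and for 0 below, against 7.37% and 3.21% of all genes.

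Mrpl33, a small protein of the large subunit with a bacterial counterpart, ran from 52.3 to 88.9 CPM in unirradiated vehicle mice (median 71.1) and from 115 to 147 (median 125) at 24 h after radiation. The groups did not overlap, and the log2 fold change was 0.86 (SE 0.09, adjusted p = 2.48e-11). Mrpl20, whose bacterial counterpart binds early in assembly of the large subunit, ran from 47 to 76.9 CPM (median 59.4) and at 24 h reached 128 (median 110), which is 0.93 on the log2 scale (SE 0.08, adjusted p = 4.95e-14). Mrpl16, a core protein of the large subunit, ran from 38.8 to 59.1 CPM (median 48.9) and from 75.2 to 96.4 (median 87.2), a log2 fold change of 0.86 (SE 0.07). In both genes, too, the lowest irradiated library was above the highest baseline library. Mrpl51, a mitochondria-specific protein of the large subunit, went from a median of 78.4 to 137 CPM (log2 fold change 0.78).

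The highest fold change of the family was that of Mrps6, a small-subunit protein with a bacterial counterpart, which ran from 30.7 to 53 CPM (median 42.1) in the baseline and from 83.6 to 110 CPM (median 103) at 24 h. Its log2 fold change was 1.23 (SE 0.09, adjusted p = 7.11e-18). Slc5a3, a myo-inositol transporter gene that shares exon bases with Mrps6 on the same strand, was higher as well (log2 fold change 0.75, adjusted p = 0.00105). Which of the 2 genes the shared reads came from was not tested.

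Members with known roles in the ribosome were as follows. Of the stalk that recruits translation factors, Mrpl12 had a log2 fold change of 0.53 (baseline 67.3 to 106 CPM, irradiated 110 to 149, with no overlap) and Mrpl10 one of 0.34. At the decoding site Mrps12 had 0.38 and Mrps5 0.24, and in the peptidyl transferase region Mrpl3 had 0.35 and Mrpl2 0.41. Mrpl45, which lines the exit of the peptide tunnel and anchors the ribosome to the inner membrane, had 0.37. The paralogs Mrps18a, Mrps18b and Mrps18c had 0.56, 0.41 and 0.75, and Mrps30, a large-subunit protein despite its name, had 0.23. All of these passed the test.

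The 4 members that did not pass were all of the large subunit. Mrpl44, a protein with a ribonuclease fold, had a median of 82.7 CPM in the baseline and 81.7 at 24 h (log2 fold change 0.00). Mrpl49 had a log2 fold change of 0.09, Mrpl50 of 0.12 and Mrpl9 of -0.13. Neither reading the baseline by set nor joining libraries of one tag turned the direction: 73 members were higher and 0 lower against the earlier set alone (median 0.54), 63 and 0 against the later set alone (median 0.43), and 71 and 0 with libraries of one tag summed. Of the 73 calls, 61 held under each of 11 other settings and with each of 23 libraries left out.

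**Figure D2:**
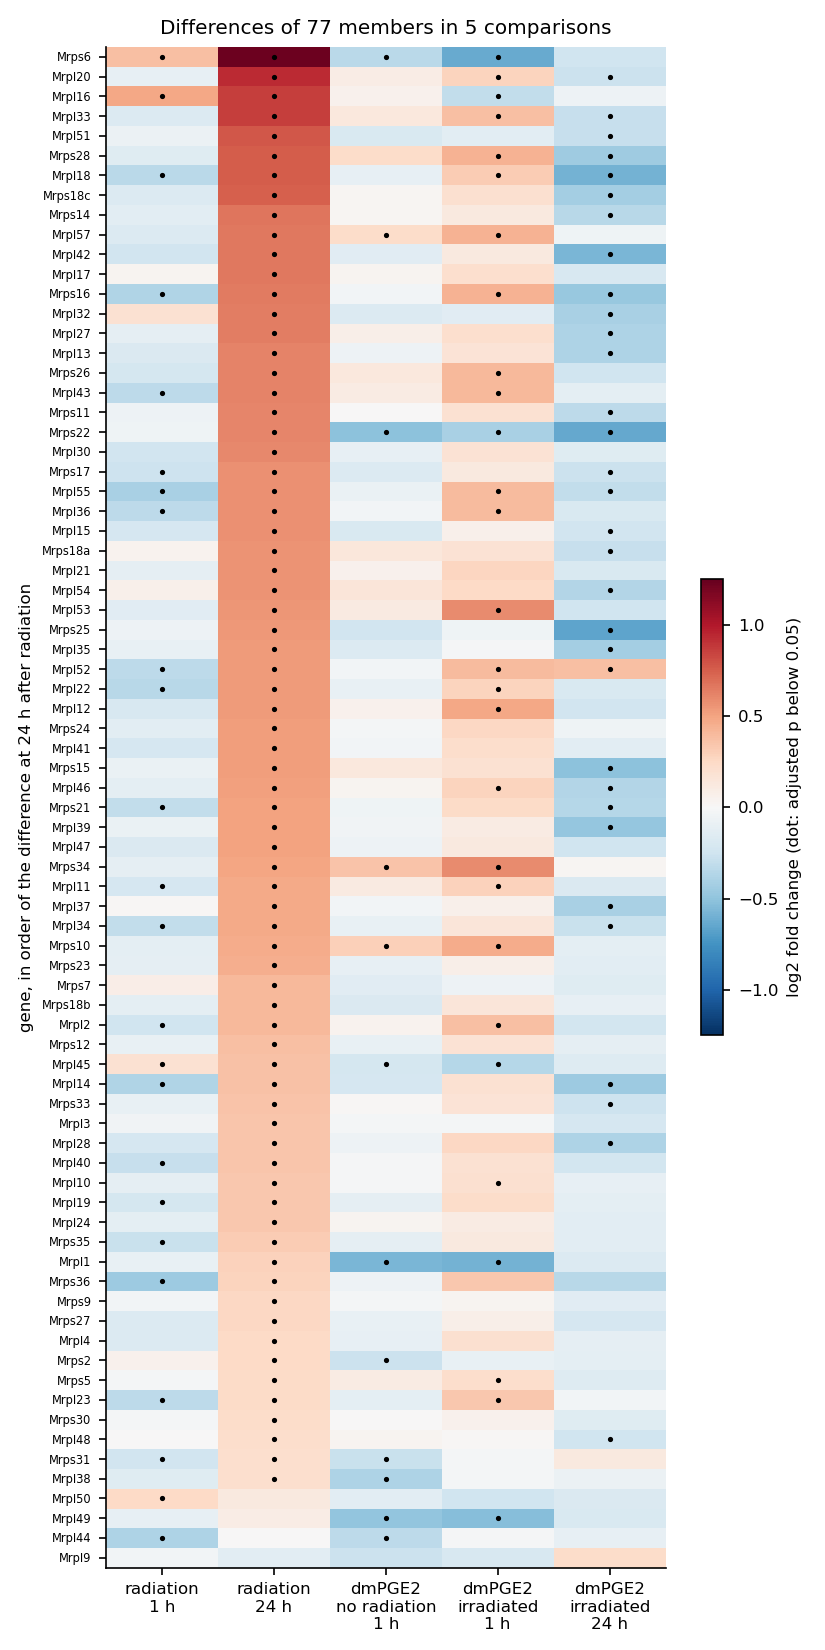
Log2 fold changes of all 77 members (rows, in order of the difference at 24 h after radiation) in 5 comparisons (columns); red is higher, blue lower, and a dot marks an adjusted p below 0.05. In the column of 24 h after radiation 73 of 77 members carry a dot and all 73 are red.

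Fold change went with transcript length. Over the 77 members the rank correlation of the log2 fold change at 24 h with exon length was -0.35, and over all 14320 genes it was -0.29; members share libraries, so these are descriptions. The 39 members of up to 1053 bases had a median of 0.55 and the 38 longer ones one of 0.36. All 1176 genes tested that span the lengths of the shorter members had a median of 0.33. The part of length in the family's difference was not tested.

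**Figure D3:**
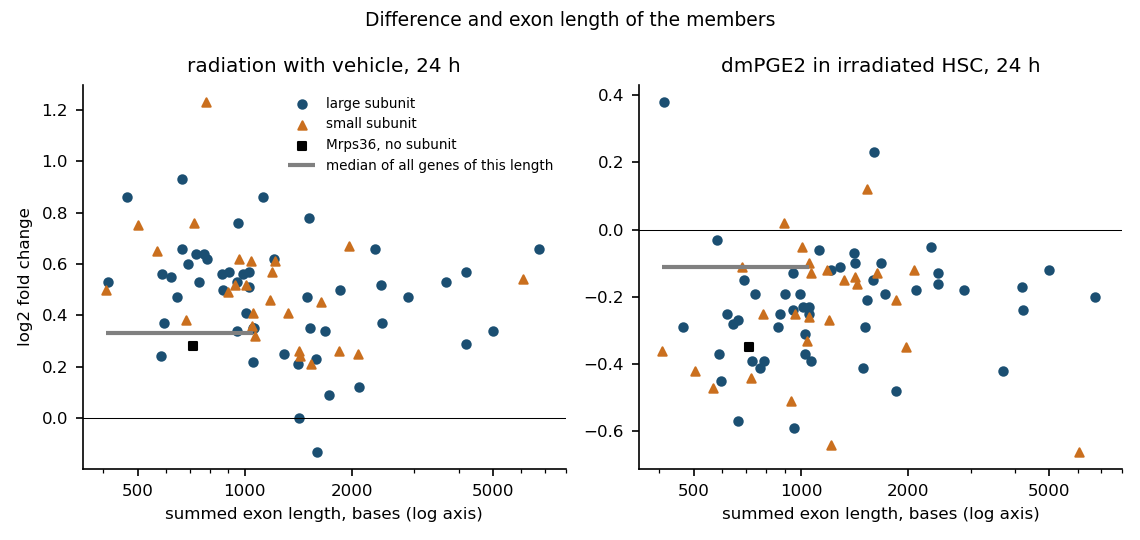
Log2 fold change of each member (y axis) against its summed exon length in bases (log x axis), at 24 h after radiation with vehicle (left) and for dmPGE2 in irradiated HSC at 24 h (right); circles are large-subunit genes, triangles small-subunit genes, the square is Mrps36. The grey line is the median of all genes with lengths of the shorter members, 0.33 on the left and -0.11 on the right, and most shorter members lie beyond it.

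Other genes of mitochondrial translation did not all move with the members. All 6 ribosomal proteins that carry other names were higher at 24 h (median 0.40), among them Dap3 of the small subunit (log2 fold change 0.19) and Ict1, a peptidyl-tRNA hydrolase built into the large subunit (0.87). Of 12 translation factors 3 were higher and 0 lower: Tufm and Tsfm, elongation factor Tu and its exchange factor, at 0.22 and 0.55, and Guf1 at 0.39. Of 17 mitochondrial tRNA synthetases 6 were higher and 4 lower (median 0.01), and of 24 genes of ribosome assembly and rRNA modification 7 were higher and 3 lower (median 0.12). In mitochondrial DNA transcription and maintenance 3 were higher and 4 lower of 10, with Tfam, which packages mitochondrial DNA, at 0.21 and Polrmt, its RNA polymerase, at -0.65. Nuclear-encoded respiratory chain subunits (72 of 77 higher, 1 lower, median 0.58) and cytosolic ribosomal proteins (77 of 82 higher, 0 lower, median 0.55) had counts and medians near those of the members. Cytosolic means per library were 7.66 to 8.26 log2 CPM in the later baseline set and 7.28 to 7.88 in the earlier. After radiation they were 8.27 to 8.57. Respiratory chain means were 6.95 to 7.33, 6.77 to 7.10 and 7.50 to 7.75 in the same order. These lists were not tested against each set alone. Of 20 replication and G1/S genes 11 were higher and 0 lower (median 0.51), with a mean of 7.00 to 7.38 log2 CPM per irradiated library against 6.39 to 6.91 at baseline; their part in the members' difference was not tested. Of 9 regulators of mitochondrial biogenesis 3 were higher and 3 lower: Esrra (0.69), Yy1 (0.31) and Gabpb1 (0.27) rose, and Ppargc1b (-1.07), Myc (-0.65) and Nrf1 (-0.29) fell.

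Markers of other cells differed at 24 h too. Summed CPM of 6 megakaryocyte genes ran from 853 to 1770 after radiation and from 435 to 766 in the baseline (3 of 6 higher), and that of 6 T and NK cell genes had a median of 126 against 74.6 (2 of 6 higher). The 12 HSC markers summed to 2950 to 3970 CPM against 4420 to 6280 (1 higher, 10 lower). Neutrophil genes were at 86.9 to 592 against 271 to 1770 CPM (3 of 10 lower), and 3 of 4 endothelial genes and 2 of 6 monocyte genes were lower. Of 5 erythroid genes tested 3 were lower and 1 higher, of 5 B cell genes 2 were lower and 2 higher, and of 4 stromal genes 1 was lower. The part of these cells in the members' difference was not tested, and in bulk libraries a change in the cells sorted cannot be told apart from a change in RNA per cell.

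Because the members moved together, their promoters are shown. RefSeq (GRCm38.p6) start sites matched 68 of the 77 members, and windows of 300 bases, 250 before to 50 after the start, were searched on both strands. No limit was set on the distance from the start of the counted gene. It was 10282 bases for Mrps23, 895 for Mrps21 and 740 for Mrpl20. Mrps23 and Mrps21 are among the members counted with the ETS core below. The core CCGGAAG of ETS factors such as GABP was in 24 members (35.3%, against 11.9% of 17174 promoters), and the NRF1 core GCGCANGCG in 16 (23.5% against 8.94%). The 17174 promoters include genes with too few counts to be tested, while all members were tested. A comparison with tested genes alone was not made. The YY1 core AANATGGCG was in 10 (14.7% against 3.37%), the CRE core TGACGT in 8 (11.8% against 8.97%) and the E-box CACGTG in 5 (7.35% against 8.21%). At least 1 of the first pair of cores was in 34 members (50% against 19%) and both in 6 (8.82% against 1.81%). Promoters of 64 cytosolic ribosomal protein genes held the ETS core in 39.1% and the NRF1 core in 14.1%. Mrps6, Mrpl20, Mrpl16 and Mrpl1, whose changes are among the largest named here, held neither the ETS nor the NRF1 core. Below are 140 bases, from 120 before to 20 after the start, of some members that do hold a core. They run 5′ to 3′ on the strand of the gene, with ETS and NRF1 cores on either strand in capitals. These windows show the 2 cores alone, repeated and together, and do not stand for the family.

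Mrpl12, chr11:120484517-120484656, plus strand: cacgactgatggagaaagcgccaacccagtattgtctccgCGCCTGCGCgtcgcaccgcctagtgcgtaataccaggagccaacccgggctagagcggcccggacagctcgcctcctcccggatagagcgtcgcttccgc
Mrpl33, chr5:31613831-31613970, plus strand: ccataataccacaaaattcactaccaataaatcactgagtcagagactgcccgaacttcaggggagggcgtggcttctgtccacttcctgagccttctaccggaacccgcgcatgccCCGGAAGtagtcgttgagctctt
Mrps22, chr9:98601660-98601799, minus strand: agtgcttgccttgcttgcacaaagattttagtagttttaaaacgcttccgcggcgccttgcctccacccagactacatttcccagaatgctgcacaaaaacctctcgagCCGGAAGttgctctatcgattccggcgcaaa
Mrpl52, chr14:54426789-54426928, plus strand: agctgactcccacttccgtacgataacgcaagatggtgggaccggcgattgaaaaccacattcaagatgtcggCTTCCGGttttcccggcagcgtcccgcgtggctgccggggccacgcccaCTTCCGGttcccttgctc
Mrpl22, chr11:58171544-58171683, plus strand: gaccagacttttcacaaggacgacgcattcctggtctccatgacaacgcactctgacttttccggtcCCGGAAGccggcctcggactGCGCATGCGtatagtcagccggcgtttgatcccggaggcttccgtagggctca
Mrpl57, chr14:57826119-57826258, plus strand: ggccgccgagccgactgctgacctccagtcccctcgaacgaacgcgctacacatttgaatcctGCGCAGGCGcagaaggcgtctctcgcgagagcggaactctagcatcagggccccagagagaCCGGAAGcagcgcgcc

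The window of Mrpl12 holds an NRF1 core, those of Mrpl33 and Mrps22 an ETS core, that of Mrpl52 a pair of ETS cores, and those of Mrpl22 and Mrpl57 one core of each kind. At 24 h after radiation 24 of 24 members with the ETS core were higher (median 0.56), as were 40 of 44 without it (0.46). With the NRF1 core 14 of 16 were higher (0.50), and without it 50 of 52 (0.52). These matches are letters in a window and say nothing of binding.

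At 1 h after radiation with vehicle more members fell than rose against the pooled baseline. Of 77 members 4 rose and 20 fell, where 8.65% of all genes rose and 7.31% fell, and the median was -0.13 over the members and -0.00 over all genes. Upper quartile scaling made it 2 and 31, and total counts alone 2 and 29. The count rests on the baseline: against the earlier set alone, which shares its numbers with the libraries of 1 h, 4 rose and 3 fell (median -0.07), against the later set alone 1 rose and 28 fell (median -0.21), and with libraries of one tag summed 2 rose and 13 fell. The members up to 1053 bases long had a median of -0.17, and all genes of those lengths had -0.18. Of 12 HSC markers 6 were lower, and of 4 stromal genes 2 (summed level 1.44 to 10.5 CPM against 2.92 to 36.5). The 6 B cell genes summed to 39.7 to 51.4 CPM after radiation and to 55.2 to 77.6 at baseline, with no overlap, and 1 of the 5 tested was lower. The part of these genes was not tested.

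Mrpl44 fell, from 73.7 to 94.1 CPM (median 82.7) in the baseline to 55.4 to 70.4 (median 64.4), with no overlap and a log2 difference of -0.39 (SE 0.07, adjusted p = 1.64e-05). Mrps36 (-0.45), Mrpl55 (-0.41), Mrpl14 (-0.38) and Mrps16 (-0.38) fell against the pooled baseline, but none of these 4 passed against the earlier set alone. Mrpl16 went the other way at 1 h already, from 38.8 to 59.1 CPM (median 48.9) to 56.9 to 80 (median 65.5), a log2 difference of 0.48 (SE 0.07, adjusted p = 9.89e-07). The ranges of Mrpl16 overlapped by a small margin. Mrps6 (0.38), Mrpl50 (0.25) and Mrpl45 (0.19) were the other 3 that rose, and Slc5a3, which overlaps Mrps6, rose by 1.06. Of these 3, Mrps6 and Mrpl45 did not pass against the later set alone (0.27, adjusted p = 0.0506, and 0.09, adjusted p = 0.379), and Mrpl50 passed against neither set. Of the 24 calls Mrpl16, Mrpl22, Mrpl43 and Mrpl44 held under all 10 other settings and with each of 23 libraries left out.

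dmPGE2 without radiation changed few members at 1 h: 3 rose and 9 fell, where 5.28% of all genes rose and 5.82% fell, and the median was -0.04. Upper quartile scaling made it 1 and 9. Against the earlier baseline set alone 3 rose and 5 fell, against the later 1 and 12, and with libraries of one tag summed 1 and 9. Mrpl1, the counterpart of the protein at the exit-site stalk of the bacterial large subunit, ran from 34.5 to 60.7 CPM (median 45.7) with vehicle and from 25.3 to 38.3 (median 28.1) with dmPGE2, a log2 difference of -0.57 (SE 0.11, adjusted p = 0.000102). Mrps22, a mitochondria-specific small-subunit protein mutated in human mitochondrial disease, ran from 25.8 to 39.6 CPM (median 33.8) and from 18.7 to 31.8 (median 22.7), a log2 fold change of -0.51 (SE 0.12). The ranges of both genes overlapped in part. Mrpl49 (-0.49), Mrpl38 (-0.39), Mrps6 (-0.34) and Mrpl44 (-0.33) fell as well, Mrps6 not against the earlier set alone (-0.24, adjusted p = 0.171). The 3 that rose were Mrps34 (0.36), also mutated in human mitochondrial disease, Mrps10 (0.30) and Mrpl57 (0.23), of which Mrps10 and Mrpl57 did not pass against the later set alone.

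Vehicle and dmPGE2 were next compared among irradiated mice of 1 h, which needs no baseline library. Of 77 members 22 rose and 6 fell, where 7.04% of all genes rose and 7.77% fell, and the median was 0.18 against 0.01 over all genes. Large-subunit genes gave 16 higher and 4 lower of 50, small-subunit genes 6 and 2 of 26. Mrps34 ran from 37.6 to 52.7 CPM (median 44.3) with vehicle and from 59.9 to 83.6 (median 63.4) with dmPGE2, without overlap (log2 fold change 0.59, SE 0.08, adjusted p = 1.22e-07). Mrpl12 of the stalk ran from 52 to 89.6 CPM (median 79.6) and from 80.2 to 143 (median 102), with overlap (0.48, SE 0.12, adjusted p = 0.00263). Mrpl53 (0.59), Mrps10 (0.46) and Mrpl57 (0.43) also rose. In the other direction Mrpl1 ran from 35.8 to 58.3 CPM (median 38.9) with vehicle and from 22.3 to 33.8 (median 27.5) with dmPGE2, without overlap (-0.59, SE 0.12, adjusted p = 0.000146). Mrps6 (-0.63), Mrpl49 (-0.53), Mrps22 (-0.41), Mrpl45 (-0.36) and Mrpl16 (-0.31) were the other 5 that fell, and Slc5a3 fell by 1.23 on the log2 scale. Mrps22 missed the threshold when library 2 or library 7 of the dmPGE2 group was left out (without library 7, -0.38 and adjusted p = 0.0583).

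The 2 comparisons of dmPGE2 at 1 h share no library. Mrpl57, Mrps10 and Mrps34 rose in both, which is 3 of 3 members without radiation (100%) and 3 of 22 with it (13.6%). Mrpl1, Mrpl45, Mrpl49, Mrps22 and Mrps6 fell in both, which is 5 of 9 (55.6%) and 5 of 6 (83.3%). No member went in opposite directions. Over all genes tested, 347 rose in both (45.9% of those without radiation, 34.4% of those with it), 400 fell in both (48% and 35.9%), and 35 were called in opposite directions. A test of the difference between the 2 effects called 2 members higher under radiation and 0 lower, Mrpl22 and Mrpl55 (0.37 and 0.48), where 1.17% of all genes were higher and 1.80% lower. That count was unstable: it was 11, 10 of them higher, in the paired fit with the tag as a replicate block, and ran from 0 to 4 when single libraries were left out. Length again went with the difference in irradiated HSC (rank correlation -0.47 over the members, -0.26 over all genes), with 16 of 39 shorter members higher and 6 of 38 longer ones. The shorter members had a median of 0.25, and all 1176 genes of those lengths one of 0.16.

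**Figure D4:**
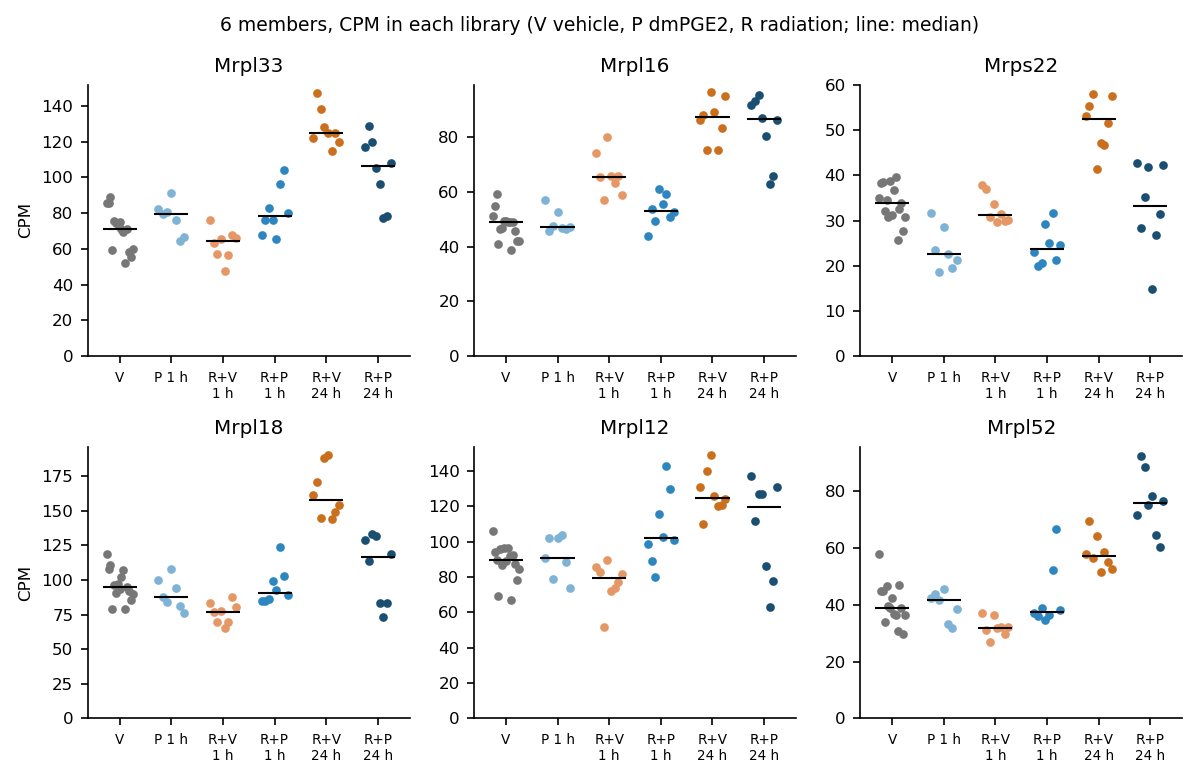
CPM of 6 members in each library (y axis, from 0) by group (x axis: V unirradiated vehicle, P dmPGE2 alone at 1 h, R+V and R+P radiation with vehicle or dmPGE2); the line is the group median. Mrps22 is lower in each dmPGE2 group than in its vehicle group by median, Mrpl16 rises with radiation alone at 1 h, and Mrpl52 is highest at 24 h with dmPGE2.

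With radiation under dmPGE2 as the contrast at 1 h, that is irradiated against unirradiated dmPGE2 mice, 0 members passed in either direction by edgeR and 0 by DESeq2, and 6 had an unadjusted p below 0.05, all 6 higher, where 0.356% of all genes rose and 0.0209% fell. The median over the members was 0.06. Irradiated dmPGE2 mice of 1 h against the vehicle baseline gave 10 members higher and 7 lower, where 9.55% of all genes were higher and 8.76% lower (median 0.01). With total counts alone the split was 5 and 11, and with upper quartile factors 5 and 9. Against the earlier baseline set alone it was 9 and 4, against the later 2 and 10. It also turned, to 5 or 6 higher and 7 or 8 lower, without any 1 of 9 libraries (irradiated dmPGE2 libraries 6 and 7, baseline libraries 4, 9, 10, 11, 13, 14 and 15).

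At 24 h dmPGE2 went with lower levels of the family. In irradiated HSC 31 of 77 members were lower than with vehicle and 1 was higher, where 12.4% of all genes were higher and 11.5% lower, and the median was -0.23 over the members and 0.03 over all genes. With only those groups in the fit 17 were lower and 1 higher (median -0.21). A fit with the tag as a replicate block also called fewer members, as given in the closing section. For 4 members, Mrpl18, Mrpl39, Mrps18c and Mrps21, every dmPGE2 library lay below every vehicle library, and for 0 above, against 1.28% and 0.677% of all genes. Mrpl18, the counterpart of a bacterial protein that binds the smaller RNA of the large subunit, ran from 144 to 190 CPM (median 158) with vehicle and from 73.3 to 133 (median 117) with dmPGE2, a log2 difference of -0.59 (SE 0.10, adjusted p = 2.99e-05). Mrps22 ran from 41.4 to 58 CPM (median 52.4) and from 14.9 to 42.7 (median 33.3), a log2 difference of -0.64 (SE 0.13, adjusted p = 0.000286). The ranges of Mrps22 overlapped only between 41.4 and 42.7 CPM. Mrps25 (-0.66), Mrpl42 (-0.57) and Mrps15 (-0.51) completed the 5 lowest. Nr2c2, which shares exon bases with Mrps25, had 0.07 and did not pass.

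The only member that rose was Mrpl52, a short mitochondria-specific large-subunit gene. It ran from 51.7 to 69.7 CPM (median 57.3) with vehicle and from 60.3 to 92.5 (median 76.0) with dmPGE2, with overlap (log2 fold change 0.38, SE 0.12, adjusted p = 0.0118). In unirradiated vehicle mice it ran from 29.9 to 57.8 CPM (median 39.0). Mrpl52 was thus higher than the baseline with vehicle (0.53) and further so with dmPGE2 (0.92).

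The difference at 24 h leans on 3 libraries. In 3 of the 4 male dmPGE2 libraries, numbered 5, 6 and 7 here, the mean over the members was 5.80, 5.78 and 5.85 log2 CPM, while the other 5 dmPGE2 libraries were at 6.11 to 6.24 and the 8 vehicle libraries at 6.21 to 6.37. The mean of 20 replication and G1/S genes was 5.58, 5.49 and 5.35 in those 3, 6.48 to 7.08 in the other 5, and 7.00 to 7.38 with vehicle. Over the whole group 19 of these 20 genes were lower with dmPGE2 (median -0.77); their part in the members' difference was not tested. Those 3 have the lowest member means of the dmPGE2 group, so the difference had to shrink without them, and leaving them out is no independent check. Without the 3 libraries 10 members were lower and 1 higher (median -0.12). Mrpl52 (0.47), Mrps22 (-0.43), Mrpl39 (-0.43), Mrps18c (-0.41) and Mrpl18 (-0.37) were among these members. Without library 3 as well, 7 were lower and 1 higher, and Mrps22 no longer passed (-0.39, adjusted p = 0.0665). Mrpl42 did not pass without libraries 5 to 7 (-0.30). Within the 24 h libraries with sex as a term 22 were lower and 1 higher. Megakaryocyte genes summed to 270 to 973 CPM with dmPGE2 against 853 to 1770 with vehicle (5 of 6 lower), and neutrophil genes to 282 to 846 against 86.9 to 592 (3 of 10 higher). Of 12 HSC markers 4 were higher (summed level 3530 to 5480 CPM against 2950 to 3970), and of 4 stromal genes 2 (5.66 to 214 CPM against 0.575 to 17.6). Of 6 monocyte genes 3 were higher, but their sum was 506 to 750 CPM with dmPGE2 and 587 to 802 with vehicle. For the 6 T and NK cell genes the median summed level was 85.9 CPM, against 126 in the vehicle group (1 lower, 0 higher). The part of these cells was not tested either.

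**Figure D5:**
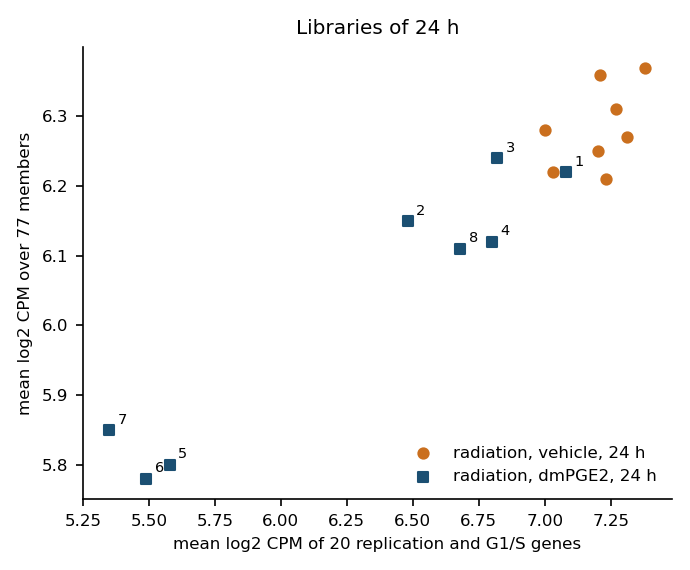
Mean log2 CPM over the 77 members (y axis) against that of 20 replication and G1/S genes (x axis) in the 16 libraries of 24 h; circles are vehicle, squares dmPGE2, numbered by library. Libraries 5, 6 and 7 stand apart from the other 13 on both axes.

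Against unirradiated vehicle mice, irradiated dmPGE2 mice of 24 h still had 42 members higher and 0 lower, where 19.0% of all genes were higher and 17.3% lower, with a median of 0.23. Against the earlier baseline set alone it was 47 and 0, and against the later 26 and 0. The comparisons with and without dmPGE2 share their baseline, so the values stand side by side only. Of the 73 members higher with vehicle, 31 were lower with dmPGE2 than with vehicle, and of these 14 were still above the baseline and 17 did not pass against it. Both calls use the same vehicle libraries of 24 h with opposite sign, so a high value in those libraries favours both. The overlap over all genes is not given, and these counts do not show a reversal. Mrpl33 had a median of 71.1 CPM in the baseline, 125 with vehicle and 107 with dmPGE2, and Mrps22 had 33.8, 52.4 and 33.3. Mrpl16 had 48.9, 87.2 and 86.7, and Mrps34 had 46.9, 66.7 and 65.5, with log2 fold changes for dmPGE2 at 24 h of -0.06 and 0.02 that did not pass.

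The other lists differed in how many of their genes were lower with dmPGE2 at 24 h. Of the 6 ribosomal proteins under other names 4 were lower, among them Dap3 (-0.25). Of 12 translation factors 4 were lower and 0 higher, including Tufm (-0.40) and Tsfm (-0.51). Of 17 tRNA synthetases 5 were lower and 1 higher (median -0.23), of 24 assembly and rRNA modification genes 4 and 1 (median -0.08), and of 10 genes of mitochondrial DNA transcription and maintenance 1 and 1 (median -0.08). The 9 regulators of biogenesis had log2 differences from -0.11 to 0.61, with edgeR adjusted p from 0.146 to 0.97. Of 77 respiratory chain genes 54 were lower and 1 higher (median -0.28), and of 82 cytosolic ribosomal protein genes 9 were lower and 0 higher (median -0.16), a share near the 11.5% of all genes that were lower. Members with the ETS core gave 11 lower and 1 higher of 24, those without it 16 lower of 44.

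The family's median response to dmPGE2 in irradiated HSC was 0.18 at 1 h, where 49 of 77 members did not pass the test, and -0.23 at 24 h. Mrps22 was lower at both times (-0.41 and -0.64). In the test of the difference between the times 45 members had a lower response at 24 h than at 1 h and 1 a higher one, where 12.6% of all genes were lower and 12.9% higher, with a median of -0.41 against 0.05 over all genes. Mrpl18 gave -0.91 (SE 0.14, adjusted p = 4.54e-06), Mrps16 -0.89, Mrpl53 -0.84, Mrpl12 -0.72 and Mrps15 -0.70. Mrps6 was the exception at 0.38 (adjusted p = 0.0438). Without dmPGE2 libraries 5 to 7 of 24 h, 30 members were lower and 3 higher, with a median of -0.29. Each time point of this contrast lies within 1 number set.

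From 1 h to 24 h after radiation 73 members rose and 0 fell with vehicle (23.4% and 27.5% of all genes, median 0.63), and 32 rose and 0 fell with dmPGE2 (18.1% and 18.2%, median 0.21). Time and number set cannot be told apart here. After the difference between the 2 baseline sets was subtracted, 57 rose and 0 fell with vehicle (median 0.48), and 8 and 0 with dmPGE2 (median 0.08). Without dmPGE2 libraries 5 to 7 of 24 h, 51 rose with dmPGE2 and 0 fell (median 0.35).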

How the data were processed

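RNA-seq libraries of sorted HSC were prepared with a SMART-Seq v4 and Nextera XT workflow, per the labels' protocols, which marks no strand and carries no molecular identifiers. Alignment with STAR 2.5.2b to mm10 and counting with featureCounts of Subread 1.5.1 are named in the submitters' processing notes. The authors deposited 1 table of raw counts per gene for 54 libraries, with the summed exon length of each gene per the file headers. For the annotation and for strandedness in counting, the sources used here state nothing. Columns were joined to groups by name, and 0 columns were left out. Where nothing says that libraries came from separate animals, p-values measure only the spread between these libraries.

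Counts were fitted with edgeR 4.0.16 (R 4.3.3, limma 3.58.1; robust quasi-likelihood test, TMM factors, filterByExpr with a count minimum of 10) on all 54 libraries with 6 group means and 48 residual degrees of freedom. A gene was called at a Benjamini-Hochberg adjusted p below 0.05 over 14320 genes. Log2 CPM used a prior count of 3. The alternatives were DESeq2 1.42.0, other scaling factors, no filter, fewer groups, single libraries left out, a sex term and a replicate block; those that split or sum the baseline libraries were chosen after seeing the data. The fit was tested on simulated data with independent libraries, which cannot show how shared tags or number sets affect the calls. Promoters were searched and figures drawn with pandas 2.3.3, numpy 2.4.6 and matplotlib 3.10.9.

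The members and the gene lists were chosen with earlier results of these data known. The text names the 5 lowest and 5 highest called members of each of 5 comparisons (mean log2 CPM no lower than 2), the 5 highest and 5 lowest per length, and members with a role of note; other members named were chosen after their values were seen. Libraries with the same tag deviated together, which pairs them, for both irradiated groups of 1 h (r 0.16 to 0.66, 8 of 8 tags above 0.1), for the 2 dmPGE2 groups of 1 h (0.12 to 0.5, 7 of 7) and for dmPGE2 alone with the baseline (0.18 to 0.49, 7 of 7). The pairing comes from these correlations and not from the labels.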

Additional observations from a re-analysis of the deposited data

Results flagged for a closer look

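Libraries were checked by the gap to the nearest neighbour relative to the group's range. A library stood apart in 10 of 135 groups of values, over 26 members and the mean of all members. The baseline group was too large for the rule and was not checked. Chance alone gives about 1 in 20 groups where these are independent, but members share libraries. At 1 h after radiation with vehicle these were Mrpl1 in library 3 (58.3 CPM, next 43.2), Mrpl12 in library 3 (52 CPM, next 72) and Mrps36 in library 5 (7.55 CPM, next 10.4). With dmPGE2 at that time library 6 was the highest for Mrpl18 (124 CPM, next 103), Mrpl20 (83.9 CPM, next 70.8) and Mrps15 (69 CPM, next 57.8). At 24 h library 6 of the vehicle group was lowest for Mrpl49 (44.3 CPM, next 64.4), and library 5 of the dmPGE2 group was highest for Mrps34 (86 CPM, next 72.2) and lowest for Mrps6 (46.4 CPM, next 75.4). Without radiation, library 1 of the dmPGE2 group was highest for Mrpl53 (23.0 CPM, next 19.0).

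The response to dmPGE2 in irradiated HSC differed between 24 h and 1 h, by edgeR's test of that difference, for 46 members. Among the members named for either time, the log2 difference was -0.91 for Mrpl18, -0.84 for Mrpl53, -0.72 for Mrpl12, -0.70 for Mrps15, -0.69 for Mrpl42, -0.60 for Mrps25, -0.58 for Mrps10, -0.57 for Mrps34, -0.49 for Mrpl57 and 0.38 for Mrps6. At 1 h the response differed between irradiated and unirradiated HSC for 2 members, Mrpl22 (0.37) and Mrpl55 (0.48).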

How the results depend on the processing

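Which direction held more calls turned in 3 comparisons: irradiated dmPGE2 mice of 1 h against the baseline (10 higher and 7 lower, but 4 and 5 with libraries of one tag summed, and 5 and 11 with total counts alone), radiation at 1 h (4 and 20, but 4 and 3 against S42 to S70 alone) and dmPGE2 by radiation (2 and 0, but 0 and 1 against S42 to S70 alone or without baseline library 3 or irradiated vehicle library 3). The count of members higher at 24 h after radiation was 63 to 73 of 77, against 73, under 11 settings and 70 to 73 with single libraries left out. With total counts alone it was 63, while over all genes 2615 rose and 4796 fell, against 3331 and 3789. For radiation at 1 h, 24 calls became 7 against the baseline set S42 to S70 alone and 15 with libraries of one tag summed, and ran from 17 to 27 with single libraries left out. For dmPGE2 at 24 h, 32 calls became 18 with only the groups compared, 11 without libraries 5 to 7, and 8 without library 3 as well (23 to 39 with single libraries left out). For irradiated dmPGE2 mice against the baseline, 17 calls at 1 h became 9 with libraries of one tag summed, and 42 at 24 h became 26 against S79 to S85 alone. From 1 h to 24 h with dmPGE2, 32 became 51 without libraries 5 to 7 and 8 after the baseline difference was subtracted. The 2 calls for dmPGE2 by radiation became 9 with upper quartile factors, 4 with total counts alone, 0 without the filter, 9 with DESeq2, 8 with only the groups compared, 1 and 15 with either baseline set, 1 with libraries of one tag summed, and 0 to 4 with single libraries left out. Beyond fewer libraries or genes where a setting removes them, the cause was not tested.

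With the tag as a replicate block the calls were 11 for dmPGE2 by radiation and 18 for dmPGE2 at 24 h; in the other comparisons paired by the block they stayed within 1.5 times. At 24 h not every tag passed the 0.1 taken here as a sign of pairing (r 0 to 0.19, above 0.1 in 4 of 8). At that time 5 of 8 vehicle and 4 of 8 dmPGE2 libraries correlated best with their own tag. The irradiated groups of 1 h gave the same 5 of 8 and 4 of 8, so whether the tags pair the 24 h groups is uncertain. For radiation at 1 h the correlations were above 0.1 in 6 of 8 tags, and the block gave 30 calls against 24. The lowest count of a member in a library was 135. How many animals the baseline holds is uncertain, which limits every comparison with it.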
